A study of Mus musculus with 6 samples.

Results

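Interferons are cytokines that infected or stressed cells release, and most cell types answer them with a shared programme of antiviral and immune transcripts. Type I interferons act through the receptor subunits Ifnar1 and Ifnar2, type II interferon through Ifngr1 and Ifngr2, and both lead to STAT and IRF transcription factors that bind short elements in the promoters of their target genes. Nucleic acid sensors inside the cell start the response by inducing interferon, and many sensors are themselves target genes. In the kidney, tubule cells, endothelium and resident leukocytes can all express these genes.

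The set examined here held 48 mouse genes named for this response: interferon regulatory factors, signal transducers, receptors, sensors and induced genes, taken by symbol from a table of 23873 rows. Of these 48, 46 had a row with values, and 45 passed the filter for testing, which was at least 1 FPKM (fragments per kilobase of transcript, relative to the fragments of the library) in at least 3 libraries and left 13500 genes. Mx1 and Mx2 were not analysed here, and Tlr4 lay under the filter.

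RNA came from kidneys of mice 8 weeks old, with 3 libraries in each of 2 groups. The first group, labelled R26NICD2/+pax8cre and here called NICD2, carried at the Rosa26 locus an allele for the intracellular domain of Notch2, which signals without ligand, and Pax8-Cre, a driver of the renal tubule epithelium. The second group was labelled wild type (WT), although its library titles begin with NICD, so these kidneys may carry the allele without the driver. In the series title the driver is Pax-rtTA and not a Cre, and which of them was used could not be settled. The series addressed cyst growth under active Notch2 signalling. No label says that each library is another animal, so the spread behind each p-value is that between libraries and may be technical.

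A row named NOTCH2 in capitals stood at 500 to 570 FPKM in NICD2 libraries and 1.27 to 3.75 FPKM in WT libraries. The kidney marker Umod was present at 658 to 1611 FPKM in all 6 libraries. Slc12a1, the other listed marker of the thick ascending limb, stood at 7.71 to 21.0 FPKM in NICD2 libraries and 75.1 to 236 FPKM in WT libraries. The proximal tubule marker Slc34a1 stood at 43.3 to 257 FPKM in NICD2 libraries and 1891 to 2797 FPKM in WT libraries. The summed FPKM of the 2 distal tubule markers was 25.6 to 41.6 in NICD2 libraries and 233 to 260 in WT libraries. For the 2 collecting duct markers the sums were 2.18 to 15.5 in NICD2 libraries and 46.6 to 78.5 in WT libraries. WT replicate 1 alone held adrenal transcripts, with Cyp11a1 at 626 FPKM against at most 0.09 FPKM in the other libraries, and it had the most fat transcripts. Members whose call changed without it are given with both values. The deposited FPKM carry no stated scaling for composition, and over all tested genes the log2 fold changes had a median of 0.32, or 0.02 after median-of-ratios scaling. Calls are therefore given on the deposited values and again after that scaling. Depth, estimated from the spacing of the lowest FPKM values, was about 15700000 to 18000000 fragments in NICD2 libraries and 14700000 to 15000000 in WT libraries, so that 1 FPKM on a transcript of 1 kb rested on 14.7 to 18 fragments.

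Most interferon response genes were higher in NICD2 kidneys. By limma on log2(FPKM + 1) with Benjamini-Hochberg adjustment over all tested genes, 33 of 45 members rose and 0 fell at adjusted p under 0.05, or 73.3% higher, beside 45.1% of all tested genes higher, 16.2% lower and 61.4% in either direction. The members' log2 fold changes had a median of 1.15, against 0.32 over all tested genes. After scaling, 28 rose and 1 fell (62.2% higher), beside 28.7% of all tested genes higher, 25.7% lower and 54.4% in either direction. All 28 were among the 33. Oas3 is in both counts and passed the filter through its NICD2 libraries alone, so it had to differ. In the authors' deposited table, whose values per the file headers come from DESeq2, 29 of 46 members were higher and 1 was lower at q under 0.05, beside 21.3% of 19439 genes higher and 21.5% lower. The 3 NICD2 libraries all lay above the 3 WT libraries for 33 of the 45, Oas3 again among them, and for 49.9% of all tested genes. In whole kidney RNA, more cells of a type that expresses a gene and more RNA per cell cannot be told apart.

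**Figure D1:**
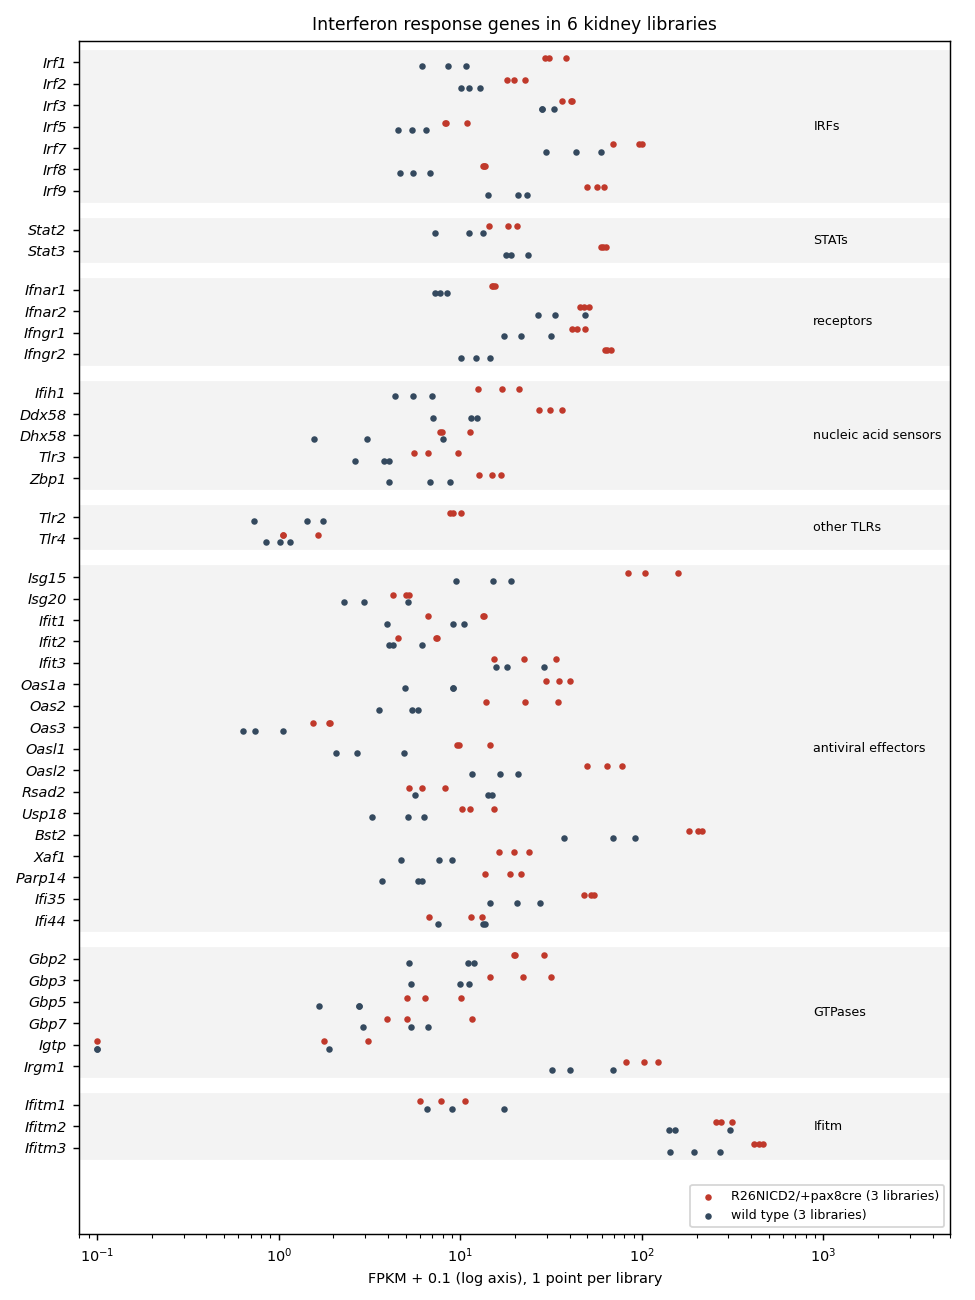
FPKM + 0.1 on a log axis for the 46 interferon response genes with values, 1 point per library, with NICD2 above WT in each row and the genes grouped by role. For 33 of the 45 tested genes every NICD2 point lies to the right of every WT point, beside 49.9% of all tested genes. Ifnar2, Dhx58, Isg20, the Ifit genes, Ifi44, Rsad2, Gbp7, Igtp, Ifitm1 and Ifitm2 overlap, as does Tlr4, which was not tested.

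The response elements of this programme can be read in the promoters. The interferon-stimulated response element (ISRE) is bound by IRF factors and by complexes that hold Stat2 and Irf9, and its core was searched on both strands as GAAA followed, after any 2 bases, by another GAAA, in the 250 bases before the start site. RefSeq promoters on GRCm38.p6 were held for 40 of the members, with the first listed start site used. The core was present in 16 of the 40 (40.0%), against 3.04% of 27025 promoters of all genes and 2.73% of 10308 promoters of tested genes. The members were listed as genes of this response, so an excess of its elements is no independent result. It stood in 10 of 29 promoters of members that rose (34.5%) and in 6 of 11 promoters of tested members that were not called (54.5%). The GAS element of STAT dimers, searched as TTCNNNGAA, which reads alike on both strands, was in 11 of 40 members (27.5%) and 7.18% of all promoters. The core of the site of RBPJ, the DNA-binding partner of Notch, was searched as TGGGAA on both strands and was in 12 of 40 (30.0%) and in 21.5% of all promoters. The 3 motifs were searched separately, and their matches can share bases. A match is a description of letters and not a binding site.

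The 150 bases before the start are shown for 6 antiviral effectors with this core. These genes carry the same element and differ in whether they were called. Isg15, Oas1a and Bst2 rose, and Ifit1, Ifit3 and Rsad2 were not called on the deposited values. Capitals mark the ISRE core or overlapping cores, on either strand. The windows are chr4:156200819-156200968 (minus strand), chr5:120907526-120907675 (minus strand), chr8:71537473-71537622 (minus strand), chr19:34640739-34640888 (plus strand), chr19:34583379-34583528 (plus strand) and chr12:26456453-26456602 (minus strand) on GRCm38.p6.
Isg15: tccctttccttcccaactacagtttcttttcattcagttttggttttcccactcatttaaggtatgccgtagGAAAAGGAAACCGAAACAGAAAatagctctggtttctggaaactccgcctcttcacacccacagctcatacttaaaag
Oas1a: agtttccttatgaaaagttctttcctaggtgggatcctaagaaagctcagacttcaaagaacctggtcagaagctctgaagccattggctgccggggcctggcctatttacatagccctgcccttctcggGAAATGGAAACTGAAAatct
Bst2: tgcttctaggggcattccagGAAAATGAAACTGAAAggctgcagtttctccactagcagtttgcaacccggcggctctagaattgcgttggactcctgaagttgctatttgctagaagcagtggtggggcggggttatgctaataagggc
Ifit1: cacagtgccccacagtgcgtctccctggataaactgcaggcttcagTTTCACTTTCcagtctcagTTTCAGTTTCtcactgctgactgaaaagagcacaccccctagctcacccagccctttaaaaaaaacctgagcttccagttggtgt
Ifit3: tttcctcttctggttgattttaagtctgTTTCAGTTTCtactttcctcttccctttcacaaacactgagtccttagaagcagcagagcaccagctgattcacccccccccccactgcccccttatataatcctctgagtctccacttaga
Rsad2: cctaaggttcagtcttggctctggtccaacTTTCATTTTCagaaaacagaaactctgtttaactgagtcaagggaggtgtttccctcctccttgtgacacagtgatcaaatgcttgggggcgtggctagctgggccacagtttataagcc
Isg15 held 3 overlapping cores in this window, Oas1a, Bst2 and Ifit1 held 2 each, and Ifit3 and Rsad2 held 1 each. Oas3, an effector that rose and is not shown, held 1 in the same window. In the full stretch searched, Ifit3 held 2. There the effectors Oasl1, Oasl2, Xaf1 and Ifi35, which rose, held 0, as did Ifi44, Ifit2 and Isg20, which were not called. Whether the number of cores goes with the calls was not tested.

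Transcripts for the receptor subunits rose for 3 of the 4, on deposited and scaled values alike. This and the later counts by role stand beside 45.1% of all tested genes higher on deposited values and 28.7% after scaling. Ifngr2, the signalling subunit of the receptor for interferon gamma (gene 15980, chromosome 16, 91547059 to 91564007), had 64.1, 67.7 and 62.7 FPKM in NICD2 libraries against 14.4, 12.1 and 10.03 FPKM in WT libraries. The NICD2 libraries lay close together and far above the highest WT library, and the log2 fold change was 2.33 (SE 0.14, adjusted p = 5.64e-05, limma). Ifngr1, the subunit that binds this cytokine, had 48.7, 41.3 and 43.9 FPKM in NICD2 libraries against 31.4, 21.6 and 17.3 FPKM in WT libraries (log2 fold change 0.94, SE 0.21, adjusted p = 0.00729, limma). Its scaled call was lost without WT replicate 3 (adjusted p = 0.0518). The ratio of Ifngr2 to Ifngr1 FPKM was 1.32 to 1.64 in NICD2 libraries and 0.459 to 0.579 in WT libraries, so the order of the subunits was turned round.

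For the type I receptor, Ifnar1 had 15.4, 14.9 and 15.0 FPKM in NICD2 libraries against 8.38, 7.66 and 7.14 FPKM in WT libraries, and the groups did not overlap (log2 fold change 0.89, SE 0.10, adjusted p = 0.000429, limma). Ifnar2, its partner subunit, had 45.3, 47.8 and 50.9 FPKM in NICD2 libraries against 48.6, 33.2 and 26.6 FPKM in WT libraries. Here WT replicate 1 lay among the NICD2 libraries. The log2 fold change of Ifnar2 was 0.44 (95% interval -0.06 to 0.94, adjusted p = 0.108, limma), and without WT replicate 1 it was 0.67 and passed (adjusted p = 0.00438).

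Both listed signal transducers rose on deposited values, Stat3 by more. Stat3, best known as the transducer of interleukin 6 family cytokines, had 63.3, 61.0 and 59.7 FPKM in NICD2 libraries against 23.5, 19.1 and 17.8 FPKM in WT libraries. Its log2 fold change was 1.57 (SE 0.12, adjusted p = 0.000115, limma), and 1.23 after scaling (adjusted p = 0.000157). Stat2, the partner of Irf9 in the type I complex, had 18.2, 14.3 and 20.5 FPKM in NICD2 libraries against 13.3, 11.1 and 7.18 FPKM in WT libraries. Its groups were separated by little, and its log2 fold change was 0.72 (SE 0.23, adjusted p = 0.031, limma). The call of Stat2 was lost after scaling (log2 fold change 0.39, adjusted p = 0.137) and without NICD2 replicate 1 or 3 or WT replicate 2 or 3 (adjusted p 0.0595 to 0.0995). Stat2 also overlaps Apof on the same strand.

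All 7 interferon regulatory factors rose on deposited values, and 4 did after scaling, beside 45.1% and 28.7% of all tested genes higher. Irf1, an activator induced by interferon gamma (gene 16362, chromosome 11, 53769854 to 53778374), had 37.9, 29.3 and 30.8 FPKM in NICD2 libraries against 8.45, 10.6 and 6.09 FPKM in WT libraries. Every NICD2 library lay well above the highest WT library (log2 fold change 1.86, SE 0.20, adjusted p = 0.000361, limma). Irf9, the DNA-binding part of the type I complex, had 56.2, 49.9 and 62.0 FPKM in NICD2 libraries against 23.1, 20.8 and 14.2 FPKM in WT libraries (log2 fold change 1.51, SE 0.19, adjusted p = 0.000652, limma). The whole Irf9 model lies within Rnf31 on the same strand, so fragments of the shared exons may be split between them. Irf8, a factor of myeloid cells, had 13.2, 13.7 and 13.5 FPKM in NICD2 libraries against 6.68, 5.42 and 4.55 FPKM in WT libraries (log2 fold change 1.15, SE 0.14, adjusted p = 0.000558, limma). These 3 factors and Irf2, an antagonist of Irf1, also passed after scaling. Irf2 averaged 20.1 ± 2.34 FPKM in NICD2 libraries and 11.2 ± 1.34 FPKM in WT libraries (SD, n = 3 each).

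The other 3 factors passed only before scaling. Irf7, the factor that amplifies type I interferon production, was the most abundant, with 96.6, 69.6 and 99.6 FPKM in NICD2 libraries against 43.2, 59.4 and 29.7 FPKM in WT libraries. Its log2 fold change was 1.03 (SE 0.26, adjusted p = 0.0132, limma), and 0.68 after scaling (adjusted p = 0.0577). Irf3, which responds first to sensed nucleic acid, averaged 39.4 ± 2.7 FPKM in NICD2 libraries and 29.6 ± 2.76 FPKM in WT libraries (SD, n = 3 each). After scaling its log2 fold change was 0.06 (95% interval -0.17 to 0.30), and its call was also lost without NICD2 replicate 2 or 3 or WT replicate 2 or 3. Irf5, a factor downstream of Toll-like receptors, averaged 9.09 ± 1.53 FPKM in NICD2 libraries and 5.39 ± 0.946 FPKM in WT libraries (SD, n = 3 each), with a scaled log2 fold change of 0.35 (adjusted p = 0.148, limma). Its model overlaps Tnpo3 on the opposite strand, and the labels do not say whether counting used strand.

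Of 5 nucleic acid sensors 4 rose, on deposited and scaled values, though the scaled calls of Tlr3 and Zbp1 were lost under further settings. Ddx58, which the annotation places inside 2 very long predicted genes and which encodes the RNA sensor RIG-I, had 31.0, 27.2 and 36.3 FPKM in NICD2 libraries against 11.4, 12.3 and 6.94 FPKM in WT libraries (log2 fold change 1.56, SE 0.22, adjusted p = 0.00102, limma). Ifih1, which encodes the sensor of long double-stranded RNA MDA5, had 21.0, 12.4 and 17.0 FPKM in NICD2 libraries against 5.39, 6.86 and 4.28 FPKM in WT libraries (log2 fold change 1.44, SE 0.22, adjusted p = 0.00157, limma). Zbp1, a sensor of Z-form nucleic acid that can start necroptosis, had 14.9, 12.6 and 16.7 FPKM in NICD2 libraries against 6.71, 8.66 and 3.93 FPKM in WT libraries (log2 fold change 1.13, SE 0.25, adjusted p = 0.00754, limma). For these 3 genes the groups did not overlap, and in the authors' deposited table the q of Zbp1 was 0.0589. Its scaled call (adjusted p = 0.0264) was lost without WT replicate 3 (0.0535).

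The remaining sensors were Tlr3 and Dhx58. Tlr3, the endosomal receptor for double-stranded RNA, averaged 7.18 ± 2.13 FPKM in NICD2 libraries and 3.39 ± 0.76 FPKM in WT libraries (SD, n = 3 each; log2 fold change 0.88, adjusted p = 0.0122, limma). The scaled call of Tlr3 (adjusted p = 0.0439, limma) was lost without WT replicate 1 (0.0722) or WT replicate 3 (0.127), and Tlr3 was not called with quantile normalization (0.081). Dhx58, which encodes the regulator LGP2, had 7.86, 7.65 and 11.2 FPKM in NICD2 libraries against 7.93, 2.98 and 1.46 FPKM in WT libraries. WT replicate 1 lay among the NICD2 libraries, and Dhx58 was not called with it (log2 fold change 1.14, adjusted p = 0.0615, limma) and was called without it (log2 fold change 1.64, adjusted p = 0.00229). Among the listed receptors for bacterial products, Tlr2, a lipoprotein receptor, had 9.99, 9.08 and 8.64 FPKM in NICD2 libraries against 1.66, 1.34 and 0.63 FPKM in WT libraries. Its groups lay far apart (log2 fold change 2.24, SE 0.20, adjusted p = 0.000178, limma; fold 7.63 in mean FPKM). Tlr4, the receptor for lipopolysaccharide, had 1.54, 0.96 and 0.96 FPKM in NICD2 libraries against 1.06, 0.92 and 0.75 FPKM in WT libraries, and the groups overlapped.

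**Figure D2:**
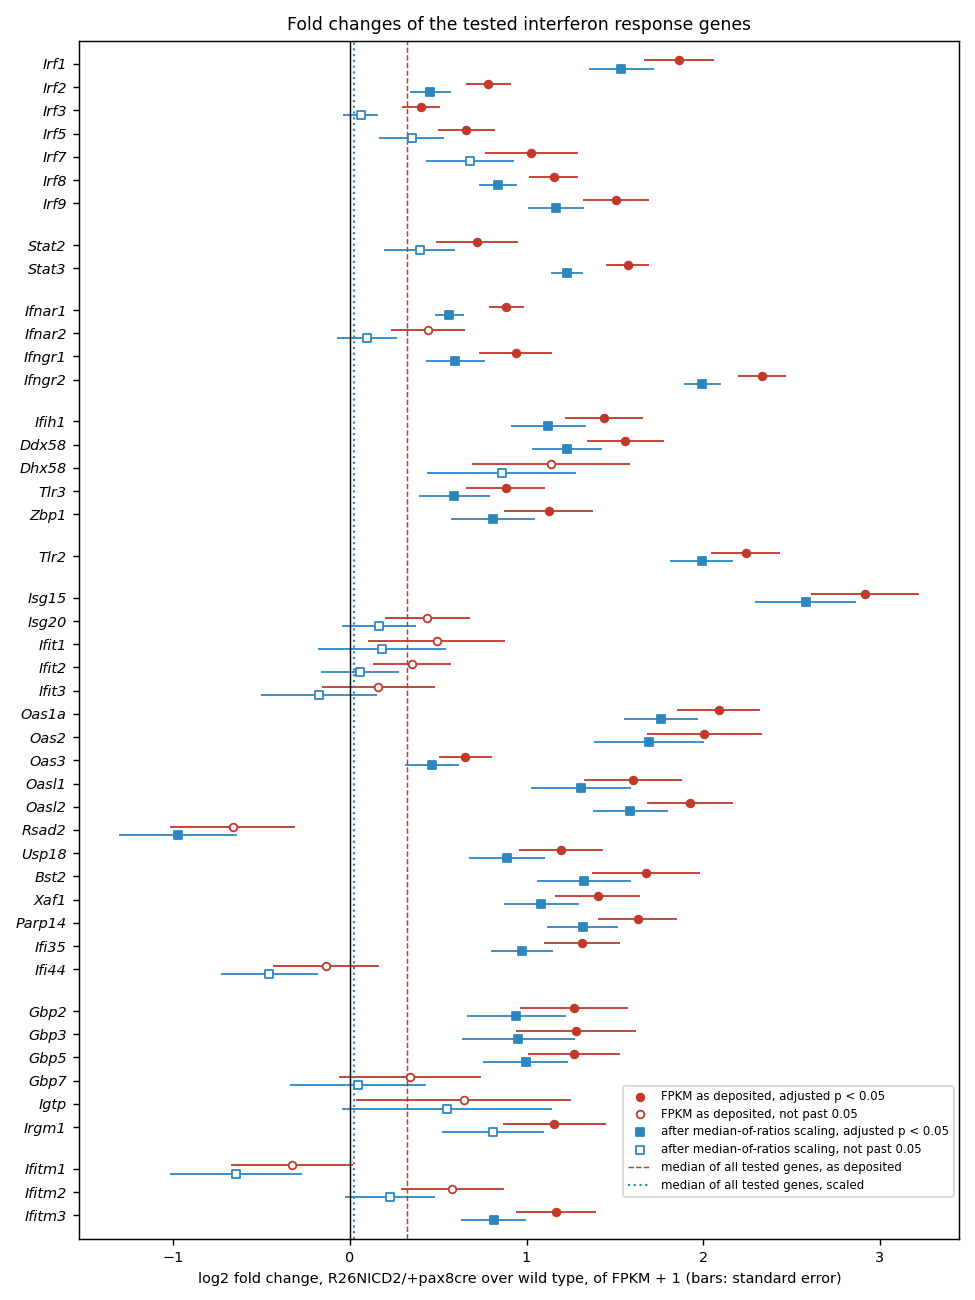
Log2 fold change of FPKM + 1, NICD2 over WT, with limma standard errors for the 45 tested interferon response genes, on deposited values (circles) and after median-of-ratios scaling (squares). Filled symbols passed adjusted p 0.05; the dashed and dotted lines mark the medians of all tested genes, 0.32 and 0.02, and 28 genes are filled to the right on both scales.

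Only some of the antiviral effectors were called. Of 17 tested, 11 rose, 0 fell and 6 were not called, and after scaling 11 rose and 1, Rsad2, fell. Of all tested genes, 45.1% were higher and 16.2% lower, and 28.7% and 25.7% after scaling. Isg15, a ubiquitin-like protein that is conjugated to other proteins (gene 100038882, chromosome 4, 156199424 to 156200818), had 104, 84.0 and 159 FPKM in NICD2 libraries against 18.9, 15.0 and 9.37 FPKM in WT libraries. It had the largest log2 fold change of the tested members, 2.92 (SE 0.31, adjusted p = 0.000343, limma), above 98.5% of all tested genes. Oas1a, an enzyme that makes oligoadenylates to activate RNase L, had 34.8, 29.7 and 40.0 FPKM in NICD2 libraries against 9.04, 9.01 and 4.85 FPKM in WT libraries (log2 fold change 2.09, SE 0.23, adjusted p = 0.00045, limma). Oas2, of the same enzyme family, had 34.5, 13.8 and 22.6 FPKM in NICD2 libraries against 5.31, 5.77 and 3.48 FPKM in WT libraries (log2 fold change 2.01, SE 0.33, adjusted p = 0.00194, limma). In each of these 3 genes the groups were well separated, and NICD2 replicate 2 was the lowest of its group.

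Oas1a has close paralogs beside it, and fragments may be split among them. The rest of the oligoadenylate synthetase group rose as well. Oasl2 averaged 63.8 ± 14.2 FPKM in NICD2 libraries and 16.2 ± 4.65 FPKM in WT libraries, and Oasl1, a related protein without enzyme activity, 11.2 ± 2.81 FPKM in NICD2 libraries and 3.13 ± 1.48 FPKM in WT libraries (SD, n = 3 each). Oas3 had 1.8, 1.44 and 1.82 FPKM in NICD2 libraries against 0.54, 0.96 and 0.64 FPKM in WT libraries. It passed the filter through its NICD2 libraries alone, so it had to differ between the groups. Its scaled call (adjusted p = 0.0386, limma) was lost without WT replicate 1 (0.0716), WT replicate 3 (0.092) or NICD2 replicate 2 (0.0613), and it was not called with quantile normalization (0.14). Other effectors that rose were Bst2, the tetherin that holds budding virus at the cell surface, Usp18, which removes Isg15 and restrains the type I receptor, Xaf1, Parp14, an ADP-ribosyltransferase, and Ifi35. Their mean FPKM in NICD2 libraries were 2.48 to 3.5 times those in WT libraries. Bst2 was the most abundant effector, at 215, 183 and 204 FPKM in NICD2 libraries and 91.7, 69.5 and 37.2 FPKM in WT libraries.

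The other 6 effectors did not pass on deposited values. Ifit1, a protein that binds foreign RNA caps, had 13.2, 6.51 and 13.4 FPKM in NICD2 libraries against 10.3, 9.01 and 3.87 FPKM in WT libraries (log2 fold change 0.49, 95% interval -0.43 to 1.42, adjusted p = 0.306, limma). Ifit2 had 7.35, 4.44 and 7.25 FPKM in NICD2 libraries against 4.16, 6.05 and 3.94 FPKM in WT libraries (log2 fold change 0.35, 95% interval -0.17 to 0.88, adjusted p = 0.205, limma). Ifit3 had 22.3, 15.2 and 33.5 FPKM in NICD2 libraries against 17.9, 28.7 and 15.6 FPKM in WT libraries (log2 fold change 0.16, 95% interval -0.61 to 0.93, adjusted p = 0.683, limma). The groups overlapped in all 3, and the log2 fold change of Ifit3 was -0.17 after scaling. Ifit3 has a near-identical neighbour, Ifit3b, and Ifit1 overlaps Ifit1bl1 on the opposite strand, so fragments may be split between these rows.

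Rsad2, the antiviral enzyme viperin (gene 58185, chromosome 12, 26442743 to 26456452), had 6.06, 5.1 and 8.1 FPKM in NICD2 libraries against 14.1, 14.8 and 5.54 FPKM in WT libraries. WT replicate 3 lay among the NICD2 libraries. The log2 fold change of Rsad2 was -0.66 (SE 0.36, adjusted p = 0.146, limma) on deposited values, -0.97 after scaling (adjusted p = 0.0444) and -1.08 without WT replicate 3 (adjusted p = 0.00596), and the authors' deposited table gives -1.14 (q = 0.00584). The scaled call of Rsad2 was lost without WT replicate 1 (log2 fold change -0.84, adjusted p = 0.102, limma) or NICD2 replicate 2. It was also lost with the replicate number as a further term (adjusted p = 0.0815, limma). Ifi44 averaged 10.4 ± 3.33 FPKM in NICD2 libraries and 11.4 ± 3.49 FPKM in WT libraries, and Isg20, an exonuclease, 4.71 ± 0.506 FPKM in NICD2 libraries and 3.36 ± 1.5 FPKM in WT libraries (SD, n = 3 each). Isg20 passed without WT replicate 1 (log2 fold change 0.70, adjusted p = 0.00654, limma).

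**Figure D3:**
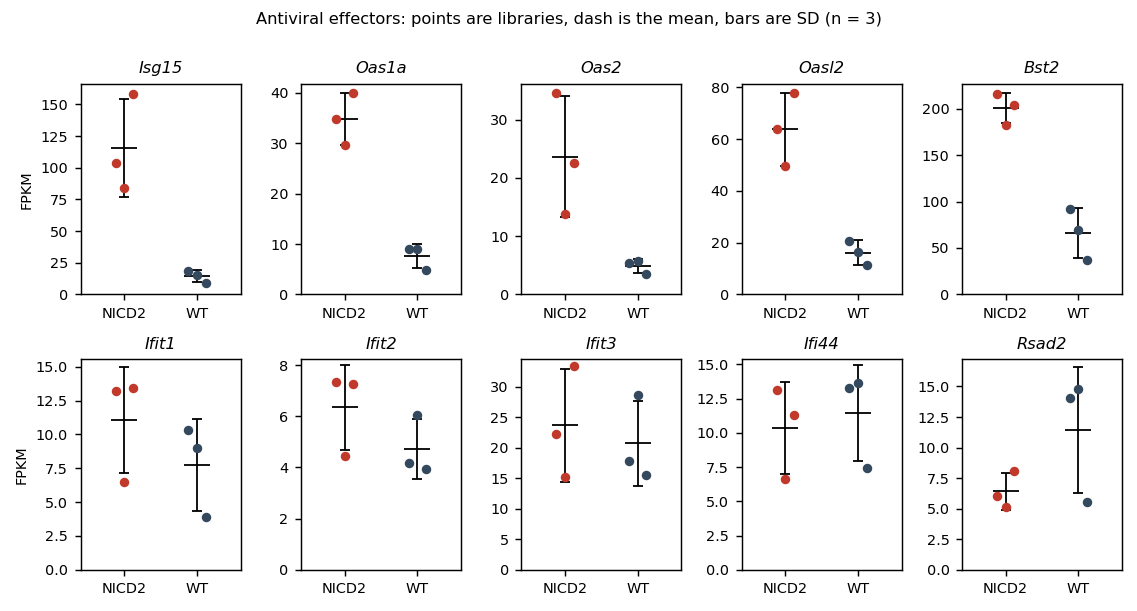
FPKM of 10 antiviral effectors in each library (points), with the mean and SD over 3 libraries of each group; every axis starts at 0. Isg15, Oas1a, Oas2, Oasl2 and Bst2 are separated between NICD2 and WT, and Ifit1, Ifit2, Ifit3, Ifi44 and Rsad2 overlap.

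Ratios within a library do not depend on scaling between libraries. The pairs were chosen after the values were seen, so they are given with no test. The ratio of Isg15 to Rsad2 FPKM was 17.2, 16.5 and 19.6 in NICD2 libraries against 1.34, 1.02 and 1.69 in WT libraries. The ratio of Isg15 to Ifit1 was 7.89 to 12.9 in NICD2 libraries and 1.67 to 2.42 in WT libraries, and that of Oas1a to Ifit3 was 1.19 to 1.96 in NICD2 libraries and 0.311 to 0.505 in WT libraries. Oasl2 stood at 4.89 to 7.45 times Ifi44 in NICD2 libraries and at 1.2 to 1.56 times Ifi44 in WT libraries. In each of these pairs the ratios of the NICD2 libraries lay above those of the WT libraries.

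**Figure D4:**
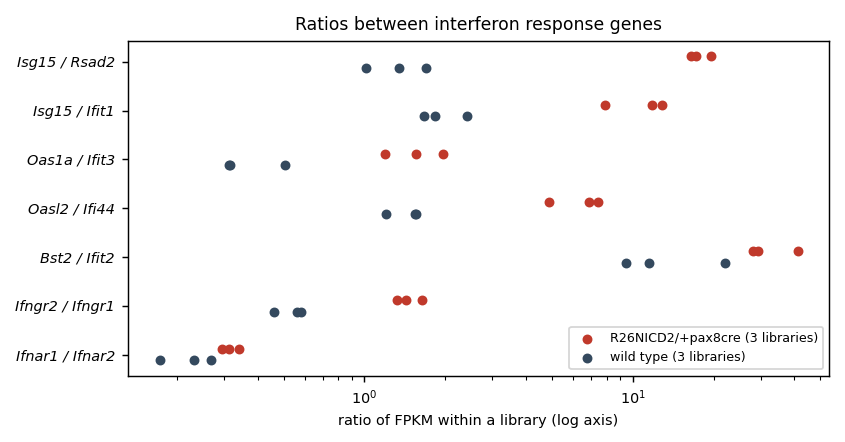
Ratio of FPKM between pairs of interferon response genes within each library, on a log axis, with NICD2 above WT in each row. The NICD2 libraries lie to the right of the WT libraries in each of the pairs plotted, with the widest gap for Isg15 over Rsad2 (16.5 to 19.6 in NICD2, 1.02 to 1.69 in WT). Not all pairs computed are plotted. Of those left out, Irf7 over Irf3 overlaps (1.72 to 2.66 in NICD2, 1.06 to 2.12 in WT), and the others do not.

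Of the 6 interferon-inducible GTPases, which act on the membranes of vacuoles around intracellular pathogens, 4 rose, and 3 did after scaling. Of all tested genes, 45.1% were higher on deposited values and 28.7% after scaling. The guanylate-binding proteins Gbp2, Gbp3 and Gbp5 lie in a cluster on chromosome 3, each with a log2 fold change close to 1.27. Gbp3 had 31.6, 14.5 and 22.0 FPKM in NICD2 libraries against 9.87, 11.01 and 5.23 FPKM in WT libraries (log2 fold change 1.28, SE 0.34, adjusted p = 0.0153, limma). Gbp5 had 10.1, 6.32 and 5.0 FPKM in NICD2 libraries against 2.68, 2.68 and 1.56 FPKM in WT libraries (log2 fold change 1.27, SE 0.26, adjusted p = 0.00523, limma). Gbp2 had 28.9, 20.1 and 19.7 FPKM in NICD2 libraries against 10.9, 11.9 and 5.12 FPKM in WT libraries (log2 fold change 1.27, SE 0.31, adjusted p = 0.0103, limma). NICD2 replicate 1 was the highest library for all 3 genes. The scaled call of Gbp3 (adjusted p = 0.0415, limma) was lost without WT replicate 1 (0.0613) or WT replicate 3 (0.111), and Gbp3 was not called with quantile normalization (0.0549). The scaled call of Gbp2 (adjusted p = 0.0272, limma) was lost without NICD2 replicate 2 (0.0544). Gbp7, from the same cluster, had 11.5, 3.87 and 5.02 FPKM in NICD2 libraries against 5.26, 6.58 and 2.8 FPKM in WT libraries, so that NICD2 replicate 1 alone lay above the WT libraries. Its log2 fold change was 0.34 (95% interval -0.62 to 1.30, adjusted p = 0.491, limma). The proteins of this cluster are close in sequence, and the way the counting shared fragments among them is not given in the sources used here.

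Irgm1, which regulates the other immunity-related GTPases, was the most abundant of the group, at 122, 81.4 and 103 FPKM in NICD2 libraries against 40.1, 69.1 and 31.9 FPKM in WT libraries (log2 fold change 1.16, SE 0.29, adjusted p = 0.0123, limma; adjusted p = 0.0516 after scaling). Igtp was listed at 1.67, 0 and 3.0 FPKM in NICD2 libraries and at 1.8, 0 and 0 FPKM in WT libraries. A value of 0 in such a file can be a failed estimate.

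The interferon-induced transmembrane proteins, which hinder the entry of viruses into cells, lie together on chromosome 7 and held the most abundant members. Ifitm3 had 467, 413 and 442 FPKM in NICD2 libraries against 270.0, 194 and 142 FPKM in WT libraries, with no overlap (log2 fold change 1.17, SE 0.23, adjusted p = 0.00413, limma). Ifitm2 had 255, 314 and 274 FPKM in NICD2 libraries against 305, 151 and 141 FPKM in WT libraries, where WT replicate 1 stood apart from the other WT libraries. It was not called with all libraries (log2 fold change 0.58, adjusted p = 0.126, limma) and was called without WT replicate 1 (log2 fold change 0.93, adjusted p = 0.0012). Ifitm1 had 5.88, 7.69 and 10.5 FPKM in NICD2 libraries against 6.49, 17.3 and 8.91 FPKM in WT libraries (log2 fold change -0.33, 95% interval -1.15 to 0.50, adjusted p = 0.442, limma). It passed as lower with scaling without WT replicate 1 (log2 fold change -0.99, adjusted p = 0.0373).

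The members varied together among replicates. WT replicate 3 was the lowest WT library for 41 of 45 tested members (91.1%), against 47.5% of all tested genes. NICD2 replicate 2 was the lowest of its group for 33 of 45 (73.3%), against 31.9% of all tested genes. Leaving out WT replicate 3 left 31 members higher and 1, Rsad2, lower, and leaving out NICD2 replicate 2 left 32 higher and 0 lower. Leaving out WT replicate 1 gave 37 higher, the 33 with Isg20, Ifnar2, Dhx58 and Ifitm2 added. Over the 6 fits that each leave out 1 library, 31 members were called higher throughout, all but Irf3 and Stat2 of the 33.

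Other genes of the pathway were taken from lists of its components and of further induced genes. Among kinases, regulators and sensors outside the set, 19 of 28 tested rose and 0 fell, with a median log2 fold change of 0.62, and after scaling 12 rose and 1 fell, beside the 45.1% and 28.7% of all tested genes that were higher. Cgas, Ifnlr1, Tlr8 and Tlr9 reached 1 FPKM in NICD2 libraries alone, so these 4 of the 19 had to differ and the count and median lean on that. Socs3, a feedback inhibitor of JAK and STAT signalling, averaged 15.8 ± 6.04 FPKM in NICD2 libraries and 1.01 ± 0.442 FPKM in WT libraries (SD, n = 3 each). Its log2 fold change was 3.03 (SE 0.27, adjusted p = 0.000195, limma). Sting1, the adaptor of DNA sensing, rose 6.9-fold in mean FPKM. Cgas, the sensor before it, averaged 2.97 ± 0.479 FPKM in NICD2 libraries and 0.397 ± 0.17 FPKM in WT libraries (SD, n = 3 each).

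Among further induced genes, 26 of 47 tested rose and 4 fell, with a median log2 fold change of 0.64. After scaling 19 rose and 6 fell. Of all tested genes, 45.1% were higher and 16.2% lower on deposited values, and 28.7% and 25.7% after scaling. Tgtp1, an immunity-related GTPase, rose 6.17-fold in mean FPKM, Nlrc5, the activator of MHC class I genes, 8.16-fold, and Dtx3l, a ubiquitin ligase that partners Parp9, 4.45-fold. The 4 that fell were Slfn5, Gbp10, Ifi203 and Gbp4. Slfn5 averaged 5.49 ± 0.359 FPKM in NICD2 libraries and 12.1 ± 1.16 FPKM in WT libraries (SD, n = 3 each). Gbp10 reached 1 FPKM in WT libraries alone, so it had to differ. Gbp10 and Gbp4 are close relatives of other guanylate-binding proteins, and fragments may be split among them. Of the interferon genes themselves, 9 had a row without a value in any library, and the 2 with values, Ifng and Ifnz, did not exceed 0.25 FPKM in any library.

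Some of the listed leukocyte markers were also higher in NICD2 libraries. Counts of markers that rose stand beside 45.1% of all tested genes higher on deposited values and 28.7% after scaling. The summed FPKM of the 6 macrophage markers with values was 167 to 195 in NICD2 libraries and 54.3 to 112 in WT libraries. On deposited and scaled values alike, 4 of the 6 rose. C1qa, the largest part of each sum, had 128, 131 and 111 FPKM in NICD2 libraries against 71.5, 37.7 and 28.4 FPKM in WT libraries. Csf1r, the receptor that defines the lineage, had 13.8, 20.4 and 17.9 FPKM in NICD2 libraries against 11.5, 20.6 and 17.3 FPKM in WT libraries and was not called. Adgre1 was not called either, with 5.63, 7.55 and 6.4 FPKM in NICD2 libraries against 10.95, 3.13 and 1.89 FPKM in WT libraries. Of 4 markers of all leukocytes 3 rose, on deposited and scaled values alike. The sums of the 4 were 63.5 to 78.1 FPKM in NICD2 libraries and 21.3 to 48.4 FPKM in WT libraries. Ptprc (CD45) stood at 4.04 to 4.95 FPKM in NICD2 libraries and 2.61 to 5.53 FPKM in WT libraries. Of 6 markers of T and NK cells 3 were tested, and 2 rose on deposited values and 1 after scaling. Cd8a had 8.84, 6.93 and 9.19 FPKM in NICD2 libraries against 1.05, 1.09 and 0.8 FPKM in WT libraries. The groups overlapped for Cd3g, at 1.35, 2.85 and 2.96 FPKM in NICD2 libraries against 1.38, 0.69 and 0.67 FPKM in WT libraries. They overlapped for Nkg7 as well. The sums over the 6 markers were 13.9 to 18.5 FPKM in NICD2 libraries and 4.96 to 7.31 FPKM in WT libraries. Cd8a was the largest part of the sum in each NICD2 library. Of 4 neutrophil markers 3 were tested, and 2 rose on deposited values and 1 after scaling. Of the 2, S100a9 reached 1 FPKM in NICD2 libraries alone. The sums were 5.48 to 13.1 FPKM in NICD2 libraries and 2.09 to 3.35 FPKM in WT libraries. The defining marker Ly6g was at most 0.08 FPKM in NICD2 libraries and listed at 0 in WT libraries.

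Siglech and Ccr9, markers of the plasmacytoid dendritic cells that make much type I interferon, did not exceed 0.3 FPKM in any library, and the B cell markers summed to at most 1.22 FPKM. Endothelial markers fell for 3 of 4, and for 4 of 4 after scaling, beside 16.2% and 25.7% of all tested genes lower. Their sums were 45.5 to 59.8 FPKM in NICD2 libraries and 95.9 to 123 FPKM in WT libraries. WT replicate 3, the lowest WT library for most members, also had the lowest macrophage sum, at 54.3 FPKM. NICD2 replicate 2, the lowest of its group for most members, had the highest macrophage sum, at 195 FPKM, and the highest leukocyte sum, at 78.1 FPKM. The part of leukocytes in the rise of the interferon response genes was not tested.

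**Figure D5:**
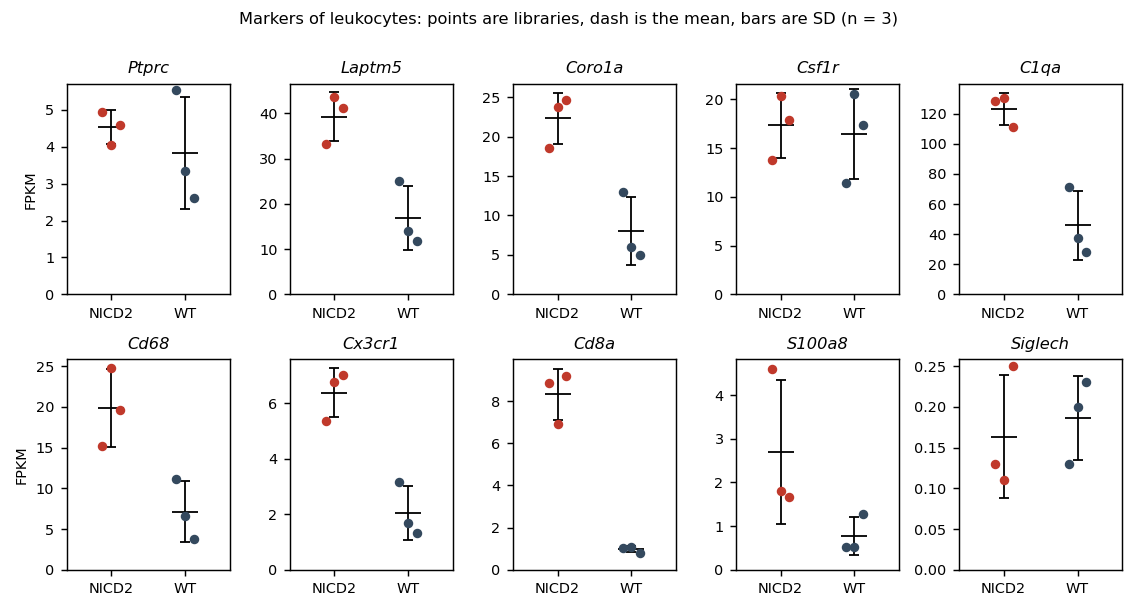
FPKM of 10 leukocyte markers in each library (points), with the mean and SD over 3 libraries of each group; every axis starts at 0. Laptm5, Coro1a, C1qa, Cd68, Cx3cr1, Cd8a and S100a8 are higher in each NICD2 library than in any WT library, and Ptprc, Csf1r and Siglech overlap. Not all listed markers are plotted. Of the tested ones left out, Adgre1, Cd3g, Nkg7 and Csf3r overlap, and Cd53, Mrc1 and S100a9 do not.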

How the data were processed

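RNA-seq of mouse kidney at 8 weeks was read from 1 deposited table with 3 libraries per group. Per the labels' protocols, total RNA was extracted with Trizol and made into Illumina TruSeq libraries. Bowtie 0.12.2 and build mm8 are named in the submitters' processing notes, with no role given. Of 22002 gene identifiers matched to RefSeq, 88.2% had the start and end of GRCm38.p6, as had 40 of the 46 members with values, so positions are read as GRCm38. The values are FPKM per the file headers, made by the authors, and the counting tool is not given in the sources used here. The deposited table also holds the authors' group comparison (log2 fold changes, p-values and q-values), from DESeq2 per the file headers; their comparisons of single library pairs were not used.

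The deposited FPKM were tested with limma 3.58.1 in R 4.3.3, with trend, as log2(FPKM + 1), on genes with at least 1 FPKM in at least 3 libraries, with genotype as the only term. Tests were two-sided, adjusted by Benjamini-Hochberg over all 13500 tested genes and called at 0.05. Fold changes on this scale understate the change of low genes, and a fold in FPKM is a ratio of group means. Depth is not given and was estimated: 71.7% to 77.5% of low values lay within 0.15 of a whole number of fragments, against 30.0% by chance, too few to recover counts. The script was tested on simulated data. Alternatives were other pseudocounts (0.1 and 5), no filter, median-of-ratios scaling, quantile normalization, a replicate block, a threshold of 0.01 and leaving out each library; scaling without WT replicate 3 or NICD2 replicate 2 was added after the data were seen. Libraries with the same replicate number did not deviate together (r of 0.10, -0.05 and 0.01), so the numbers were not used as pairs. The members and all gene lists were chosen with earlier results of these data known. Library values are given for the 3 called members with the largest log2 fold change in each role of more than 4 members, for all members of smaller roles, and for others where a result turns on them, which were chosen after their values were seen. Promoters were the RefSeq GRCm38.p6 windows, matched for 40 members by gene identifier, of which 250 bases before the start were searched. The values of 1 gene of the pathway lists are not reported here.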

Additional observations from a re-analysis of the deposited data

How the results depend on the processing

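Between 23 and 37 members were called higher under every setting run at 0.05, and 25 at a threshold of 0.01; 22 were called higher under each of those at 0.05. Leaving out 1 library at a time gave 31 to 37 members higher and 0 to 1 lower, 5156 to 6661 of all genes higher and 1826 to 2276 lower, and medians of 0.92 to 1.27 for the members and 0.28 to 0.38 for all genes. With median-of-ratios scaling 28 members were higher and 1 lower, with 3873 genes higher and 3473 lower and medians of 0.82 and 0.022. Quantile normalization gave 27 and 1 members, 3866 and 3558 genes and medians of 0.79 and 0.0074. With the replicate block 33 members were higher, and with the block and scaling together 24 were higher and 0 lower, with 3606 genes higher, 3381 lower and medians of 0.82 and 0.022. Beside the calls lost with scaling alone, those of Tlr3, Gbp3, Zbp1, Oas3 and Rsad2 were absent there. Not every library correlated best with its own number. Scaling without WT replicate 1 gave 28 members higher and 1 lower (Ifitm1), 3827 genes lower and a median over all genes of 0.015. Scaling without WT replicate 3 gave 23 members higher and 1 lower (Rsad2), 3348 genes higher and medians of 0.63 and 0.027. Scaling without NICD2 replicate 2 gave 26 members higher, 3211 genes higher and a median over all genes of 0.021. A pseudocount of 5 gave medians of 0.81 and 0.21, one of 0.1 a median over all genes of 0.37, and no filter 0.11.

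The log2 fold changes that changed sign belonged to members not called on either side. Leaving out 1 library at a time, Ifit3 ranged from -0.11 to 0.43, Gbp7 from -0.061 to 0.62, Ifi44 from -0.40 to 0.13 and Ifitm1 from -0.61 to 0.034. Ifit3 was -0.17 with scaling and with scaling and the block, -0.14 with quantile normalization, -0.11 without NICD2 replicate 3, -0.0093 without WT replicate 3, and -0.31 and -0.30 with scaling without WT replicate 1 and WT replicate 3. Gbp7 was -0.065 with quantile normalization, -0.061 without NICD2 replicate 1 and -0.20 with scaling without WT replicate 3. Ifit2 was -0.057 with quantile normalization and -0.062 with scaling without WT replicate 1. Ifi44 was 0.13 without NICD2 replicate 2 and 0.0038 without WT replicate 2, and Ifitm1 0.034 without WT replicate 2. With scaling without WT replicate 3, Ifit1 was -0.16 and Ifnar2 -0.044. The cause of these changes was not tested. Each group held 3 libraries, and the FPKM carry no counts, so counting error has no interval here.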

Other observations

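A few interferon-related genes outside the members followed WT replicate 1, the library with adrenal and fat transcripts. Irf4, a factor of lymphocytes and of adipocytes, had 0.81, 1.23 and 0.8 FPKM in NICD2 libraries against 31.3, 5.14 and 0.73 FPKM in WT libraries. Ifi27l2a had 68.7, 79.6 and 83.9 FPKM in NICD2 libraries against 381, 114 and 38.9 FPKM in WT libraries. In both genes WT replicate 1 stood far above the other 5 libraries. The fat marker Fabp4 had 45.5, 159 and 80.1 FPKM in NICD2 libraries against 2139, 527 and 117 FPKM in WT libraries, in which replicate 1 was again the highest. The part of fat in these levels was not tested.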
